A study of Homo sapiens with 12 samples.

Results

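The 2 introduced factors were SOX2 and a NOTCH1 without its extracellular domain, which the study names N1-ICD. In these data 128 genes had opposite responses to these factors. They were chosen from measured values: CPM (a gene's estimated count as a share of its library's total, times 1000000) was averaged over the libraries of each group, and a gene was taken when its mean was at least 1.5 times its control with SOX2 and at least about 1.5-fold lower with N1-ICD, or the reverse. An autosomal gene had to reach a mean of 2 CPM in all 4 groups. SOX2, NOTCH1, MYC, CCND1, HES1 and HES4 were set aside. So was each gene whose symbol starts with KRT, COL, ITG, LAM, HOX, ZNF, MMP, CLDN, CDH, KLK, CXCL, IL1 or SERPINB. These letters alone decided, whatever the gene's family. Of 29744 gene entries, 10693 reached that level and 10224 remained to choose from. Of the 128 genes, 32 were higher with SOX2 and lower with N1-ICD, and 96 were lower with SOX2 and higher with N1-ICD. The values of these 2 comparisons chose the genes, so they are given as a description without a test.

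The 4 groups, of 3 libraries each, came from MB157, an established triple-negative breast cancer (TNBC) cell line, and from MB157R, a derivative of it grown for 25 weeks in 1 µM LY3039478, a γ-secretase inhibitor (GSI). MB157 iSOX2 cells carried a doxycycline-inducible SOX2 construct and MB157 iEV cells the empty vector. MB157R iN1-ICD cells carried an inducible NOTCH1 construct lacking the extracellular domain (DeltaE-NOTCH1), and MB157R iEV cells the empty vector. The study's methods do not say whether GSI was present during the induction. Cells of each group, controls included, received doxycycline at 1 µg/ml for 72 h by the sample labels, and RNA of 800 ng per library was made into stranded mRNA libraries. SOX2 was thus introduced in the GSI-sensitive line and N1-ICD in the resistant one, and neither factor was introduced in both lines. All 4 groups derive from 1 cell line, and whether the transduced cells were clones is not given in the sources used here.

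Notch receptors are cut by γ-secretase after a ligand binds. The freed intracellular domain enters the nucleus, joins the DNA-binding protein RBPJ and switches on targets that include the HES and HEY repressors and NRARP. By the study, the NOTCH1 of MB157 has lost its extracellular domain and is active without a ligand. It keeps the transmembrane domain and stays sensitive to GSI. SOX2 is an HMG-box transcription factor of pluripotent and neural stem cells, which often binds DNA beside an octamer-binding POU factor. The study asked how the 2 factors relate in NOTCH-driven TNBC cells.

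Each library held between 32773820 and 49055208 estimated counts, so 1 count was worth between 0.0204 and 0.0305 CPM. SOX2 had 299, 345 and 307 CPM in MB157 iSOX2, against 6.56, 7.53 and 6.90 CPM in MB157 iEV. NOTCH1 had 2567, 1767 and 2589 CPM in MB157R iN1-ICD, against 101, 85.3 and 88.3 CPM in MB157R iEV, and both introduced genes matched their labels. Counts per gene do not separate the construct from the cell's own gene. Replicate 2 of MB157R iN1-ICD had less NOTCH1 than the other 2, and without it the rule again gave 32 and 96 genes, of which 30 and 90 were among those described here. Among other cell types' markers, the 4 endothelial genes summed to 102 to 111 CPM in MB157 iSOX2 against 5.95 to 7.26 CPM in MB157 iEV, which was PECAM1 for the most part (means of 97.1 and 0.0236 CPM), while VWF averaged 7.97 and 6.58 CPM and CDH5 and TIE1 were at or near 0 in both. The 6 fibroblast genes summed to 153 to 167 CPM in MB157R iN1-ICD against 71.7 to 86.8 CPM in MB157R iEV, mostly COL1A1 (means of 140.4 and 63.1 CPM), with DCN at 0 in both. The monocyte gene CD14 had the directions of the 96 genes, with means of 7.17 CPM in MB157 iSOX2 against 36.9 CPM in MB157 iEV and of 2.79 CPM in MB157R iN1-ICD against 0.336 CPM in MB157R iEV. So did CD68, with means of 1.10 against 2.23 CPM and of 11.6 against 4.2 CPM, while the leukocyte genes PTPRC and CD3E were at or near 0 in each group. The 6 mammary epithelial markers (EPCAM, KRT7, KRT8, KRT18, KRT19 and CDH1) were above 1 CPM in each group, summing to 1837 to 1886 CPM in MB157 iSOX2 against 2227 to 2260.1 CPM in MB157 iEV, and to 6279 to 7120.4 CPM in MB157R iN1-ICD against 5034 to 5244 CPM in MB157R iEV. They did not move together: the means of EPCAM (542 against 519 CPM) and CDH1 (612 against 568 CPM) were higher in MB157 iSOX2 and those of the 4 keratins lower, while EPCAM (327 against 374 CPM) and KRT7 (1072 against 1489 CPM) were lower in MB157R iN1-ICD and the other 4 higher. The part of these markers in the results below was not tested. In these bulk libraries, fewer cells that express a gene and less RNA per cell cannot be told apart.

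**Figure D1:**
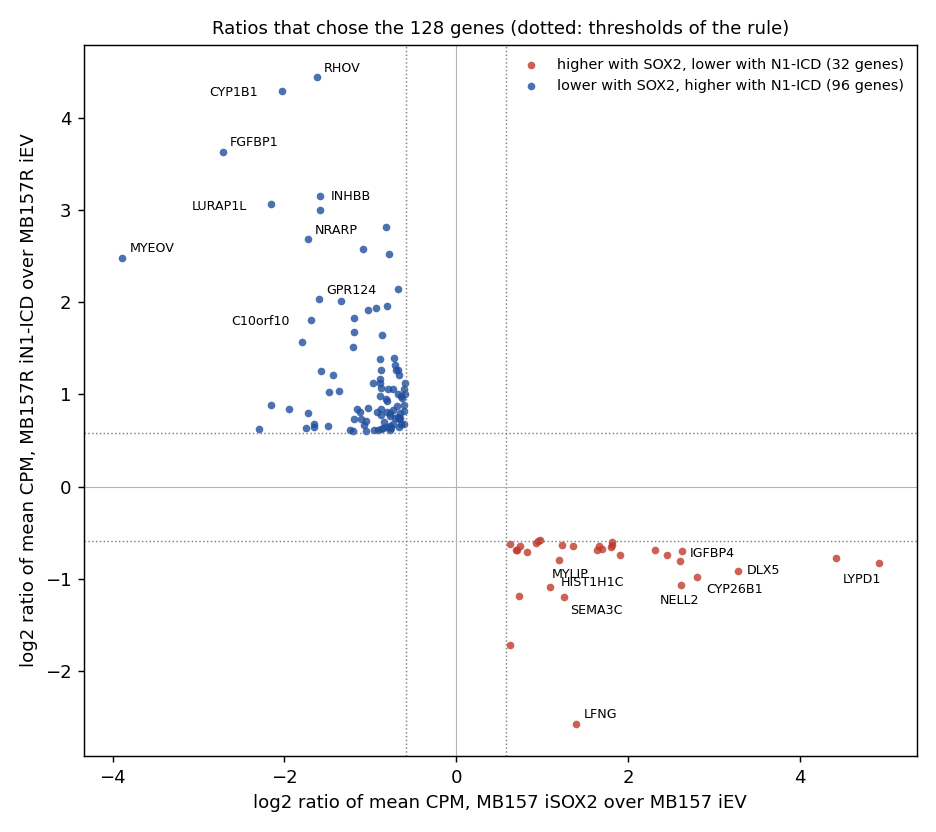
Log2 ratio of mean CPM in MB157 iSOX2 over MB157 iEV (horizontal) and in MB157R iN1-ICD over MB157R iEV (vertical), 1 point per gene, with the thresholds of the rule as dotted lines. The 32 genes at the lower right reached a ratio of up to 30.2 with SOX2 but were mostly near the threshold with N1-ICD (median 1.62-fold lower), while the 96 at the upper left reached up to 14.8-fold lower with SOX2 and a ratio of up to 21.7 with N1-ICD.

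The 128 genes were 1.25% of the 10224. The 32 genes made up 4.27% of the 749 genes that passed the upper threshold with SOX2, and 14.2% of the 225 that passed the lower one with N1-ICD. The 96 genes made up 24.1% of the 399 genes past the lower threshold with SOX2, and 15.4% of the 623 past the upper one with N1-ICD. Among the 32, the ratio of MB157 iSOX2 to MB157 iEV lay between 1.55 and 30.2 (median 2.88), and MB157R iN1-ICD was 1.5-fold to 5.93-fold below MB157R iEV (median 1.62). Among the 96, MB157 iSOX2 was 1.5-fold to 14.8-fold below MB157 iEV (median 1.85), and the ratio of MB157R iN1-ICD to MB157R iEV lay between 1.52 and 21.7 (median 1.92). The larger set was made up of protein-coding genes, and the smaller one of 28 protein-coding genes and 4 long noncoding RNAs.

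Among the genes closest to the thresholds, LOC729683, EGR1 and GALNT2 entered at SOX2 ratios of 1.548, 1.550 and 1.622, while CUEDC1, GPR153 and CROT stayed out at 1.493, 1.483 and 1.470. With N1-ICD, ANKRD50, ATP10D and PLLP entered at 0.6668, 0.665 and 0.662, while LRRN1, LOC145783 and HIST1H2AC stayed out at 0.674, 0.683 and 0.691. In the other direction KLF6, MFI2 and ERVMER34-1 entered at SOX2 ratios of 0.665, 0.663 and 0.654, while DBNDD2, THBS3 and the receptor gene NOTCH3 stayed out at 0.669, 0.677 and 0.677. With N1-ICD, NCMAP, TACC2 and TRPV3 entered at 1.518, 1.518 and 1.526, while C5orf28, RASEF and TENC1 stayed out at 1.498, 1.485 and 1.483. Genes on either side of each threshold thus differed by little.

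From the list of Notch pathway components, 2 genes were among the 128, LFNG and NRARP, and they lay in opposite sets. LFNG (lunatic fringe) adds N-acetylglucosamine to Notch receptors in the Golgi and thereby sets which ligands they answer. By the study, neither the NOTCH1 of MB157 nor the introduced NOTCH1 has the extracellular domain. LFNG had 7.31, 7.29 and 7.02 CPM in MB157 iSOX2, against 2.17, 2.95 and 3.10 CPM in MB157 iEV. In the resistant line it had 20.6, 22.3 and 20.7 CPM in MB157R iN1-ICD, against 126, 131 and 120.4 CPM in MB157R iEV. The libraries did not overlap in either comparison, and the mean was 2.63 times its control with SOX2 and 5.93-fold lower with N1-ICD, the lowest ratio with N1-ICD of the 32. NRARP encodes a short ankyrin repeat protein that binds the Notch transcription complex and limits it. It had 24.4, 27.5 and 26.1 CPM in MB157 iSOX2, against 88.5, 86.3 and 84.8 CPM in MB157 iEV. It had 86.7, 70.1 and 92.3 CPM in MB157R iN1-ICD, against 12.4, 13.9 and 12.4 CPM in MB157R iEV. NRARP was 3.33-fold lower with SOX2 and 6.43 times its control with N1-ICD, which brought it to 96% of its MB157 iEV mean.

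The windows from 250 bases before to 50 after the transcription start, from RefSeq on GRCh38.p14, are shown for these genes because motifs for the introduced factors were searched in them. The letters in capitals mark the core bound by RBPJ (TGGGAA), a SOX motif (ACAATG or ACAAAG) or a HEY and HES motif (CACGTG or CACGCG), on either strand, and a match on the other strand is given as it reads in the printed window. The first of 2 LFNG windows, chr7:2512279-2512578 on the plus strand, held an RBPJ core from base -5, at the start itself, which reads TTCCCA. The second, chr7:2517613-2517912, is not printed and held an RBPJ core from base -248 and a SOX match from base 14. The NRARP window, chr9:137302222-137302521 on the minus strand, held a SOX match from base -55, which reads CATTGT, and HEY and HES matches from bases 11 and 34, which read CGCGTG.
LFNG: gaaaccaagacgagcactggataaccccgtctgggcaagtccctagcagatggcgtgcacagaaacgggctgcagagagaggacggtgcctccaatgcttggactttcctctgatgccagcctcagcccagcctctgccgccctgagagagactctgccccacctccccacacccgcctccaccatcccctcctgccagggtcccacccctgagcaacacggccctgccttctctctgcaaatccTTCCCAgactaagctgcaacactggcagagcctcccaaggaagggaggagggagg
NRARP: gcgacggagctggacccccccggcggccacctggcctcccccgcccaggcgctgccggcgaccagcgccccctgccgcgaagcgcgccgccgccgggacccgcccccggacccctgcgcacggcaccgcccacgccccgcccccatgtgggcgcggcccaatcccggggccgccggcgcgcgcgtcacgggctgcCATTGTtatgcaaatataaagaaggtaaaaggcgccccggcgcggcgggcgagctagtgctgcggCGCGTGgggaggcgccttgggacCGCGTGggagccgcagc

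In the NRARP window the SOX match is followed by 1 base and then by ATGCAAAT, the octamer that POU factors bind. This was looked at after the sequence had been seen. The letters CATTGT, 1 base and the octamer in this order, on either strand, stood in 1 of the 12314 windows of the 10224 genes. That was the window of NRARP, from which the letters were taken, so its match was certain. The same letters stood in 2 of all 35116 windows searched, which leave out chromosome 8. The other SOX motif, ACAAAG, was not searched for beside the octamer. The octamer alone stood in 1.16% of the windows of the 10224 genes and in 1.77% of all windows. The study measured binding of SOX2 and RBPJ in cells of the same groups by sequencing of immunoprecipitated chromatin. Those data were not used here, and a match of letters is a description of the window, not of binding.

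The other Notch pathway components stood in neither set, NOTCH1 having been set aside by the rule. The list of ligands, receptors, modifiers, γ-secretase subunits and nuclear partners had 37 genes tested in each comparison. With SOX2, 16 were called higher and 10 lower, at a median log2 fold change of 0.07, and with N1-ICD 12 were called higher and 11 lower, at a median of 0.02, beside medians of 0.00 over the genes tested. Over all genes tested, 32.5% were called higher and 33.9% lower with SOX2, and 29.8% and 29.3% with N1-ICD. A call is an adjusted p under 0.05 in edgeR's quasi-likelihood test over the genes of the authors' filtered tables. HES1 and HES4 met the thresholds but were set aside by the rule. Of the HES and HEY repressors 9 were tested in each comparison, with 2 called higher and 7 lower with SOX2, and with 7 called higher and 2 not passing with N1-ICD. HEY1 was higher in both, with 49.3, 55.4 and 47.9 CPM in MB157 iSOX2 against 5.43, 4.46 and 4.40 CPM in MB157 iEV, and 7.03, 5.63 and 6.4 CPM in MB157R iN1-ICD against 0.893, 0.611 and 0.612 CPM in MB157R iEV, and so does not belong here. HEY2, HEYL and HES5 moved oppositely but were below the level the rule required. Their means were 1.78, 8.65 and 0.566 CPM in MB157 iSOX2 against 10.9, 17.7 and 2.95 CPM in MB157 iEV. In MB157R iN1-ICD they were 0.580, 1.02 and 7.89 CPM, against 0 CPM for each in MB157R iEV.

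Of 29 axon guidance genes among the 10224, SEMA3C and PLXNA2 were in the set of 32 higher with SOX2 and lower with N1-ICD, and SEMA6B was in the other set. SEMA3C, a secreted semaphorin that guides axons and vessels, had 258, 256 and 258 CPM in MB157 iSOX2, against 108, 103 and 113 CPM in MB157 iEV. It had 220.0, 259 and 206 CPM in MB157R iN1-ICD, against 533, 515 and 529.6 CPM in MB157R iEV. The groups stood apart in both comparisons, with a SOX2 ratio of 2.39 and a mean 2.30-fold lower with N1-ICD. PLXNA2, a plexin receptor for semaphorins, was 1.91 times its control with SOX2 and 1.53-fold lower with N1-ICD. NELL2, a secreted glycoprotein with EGF-like repeats found in neurons, had 28, 30.8 and 29.0 CPM in MB157 iSOX2, against 5.19, 4.88 and 4.21 CPM in MB157 iEV. It had 11.1, 11.4 and 10.3 CPM in MB157R iN1-ICD, against 21.9, 24.7 and 22.0 CPM in MB157R iEV. Its means were 6.15 times the control with SOX2 and 2.10-fold lower with N1-ICD.

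The highest SOX2 ratios belonged to LYPD1 and MDGA1, both anchored to the outer membrane by a lipid. LYPD1, which modulates nicotinic acetylcholine receptors, had 117, 121 and 121 CPM in MB157 iSOX2, against 4.33, 4.14 and 3.44 CPM in MB157 iEV, a ratio of 30.2. It had 59.6, 62.3 and 56.2 CPM in MB157R iN1-ICD, against 108, 109 and 99.1 CPM in MB157R iEV, 1.77-fold lower. MDGA1, which binds neuroligins at synapses, had 50.6, 54.5 and 50.4 CPM in MB157 iSOX2, against 2.50, 2.35 and 2.42 CPM in MB157 iEV, a ratio of 21.4. The N1-ICD side of MDGA1 was smaller, with 4.13, 5.50 and 4.80 CPM in MB157R iN1-ICD, against 9.68, 7.92 and 7.07 CPM in MB157R iEV, 1.71-fold lower. CACNA2D1, an accessory subunit of voltage-gated calcium channels, was 5.01 times its control with SOX2 and 1.61-fold lower with N1-ICD, and the myelin protein gene PLLP 3.51 times and 1.51-fold lower.

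CYP26B1 and DLX5 stood in the same set. CYP26B1 encodes an enzyme that breaks down retinoic acid. It had 16.6, 16.0 and 14.6 CPM in MB157 iSOX2, against 2.41, 2.25 and 2.08 CPM in MB157 iEV, 7.01 times as much. It had 4.62, 5.76 and 5.44 CPM in MB157R iN1-ICD, against 10.8, 11.3 and 9.11 CPM in MB157R iEV, 1.98-fold lower. DLX5, a homeobox factor of bone and forebrain development, had 44.7, 48.4 and 44.9 CPM in MB157 iSOX2, against 4.27, 5.58 and 4.38 CPM in MB157 iEV. With N1-ICD, DLX5 had 8.43, 7.42 and 7.50 CPM, against 14.2, 15.6 and 14.1 CPM in MB157R iEV. In both genes the 3 libraries of each group stood clear of its control. The CYP26B1 window, chr2:72147813-72148112 on the minus strand, is shown because its SOX match, from base -219, was its single match to the 3 motifs. The windows of SEMA3C, HIST1H1C, MYLIP, MDGA1 and RGS2, also among the most responsive of this set, held no match to these motifs.
CYP26B1: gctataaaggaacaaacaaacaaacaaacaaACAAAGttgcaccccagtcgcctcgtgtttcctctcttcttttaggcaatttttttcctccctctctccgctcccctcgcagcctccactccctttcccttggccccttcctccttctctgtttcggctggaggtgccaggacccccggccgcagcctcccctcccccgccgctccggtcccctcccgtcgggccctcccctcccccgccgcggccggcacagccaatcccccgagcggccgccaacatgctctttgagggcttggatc

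The other genes of this set on the list of transcription factors were TOX, HMGA2 and EGR1. TOX, an HMG-box protein of lymphocyte development, was 6.20 times its control with SOX2 and 1.63-fold lower with N1-ICD. HMGA2, an architectural protein that bends AT-rich DNA, had 7.76, 8.03 and 7.42 CPM in MB157 iSOX2, against 2.14, 2.21 and 2.27 CPM in MB157 iEV. It had 139.6, 154 and 145 CPM in MB157R iN1-ICD, against 218, 215 and 246 CPM in MB157R iEV. The difference in HMGA2 between the lines was far larger than either response, as MB157R iEV was 103 times MB157 iEV. EGR1, an immediate early factor, had 15.1, 14.4 and 15.6 CPM in MB157 iSOX2, against 9.82, 9.27 and 10.0 CPM in MB157 iEV, which was barely past the threshold. It had 4.60, 4.67 and 6.52 CPM in MB157R iN1-ICD, against 16.9, 21.2 and 14 CPM in MB157R iEV, 3.30-fold lower and after LFNG the largest N1-ICD response of those named in this set. The linker histone gene HIST1H1C was 2.12 times its control with SOX2 and 2.13-fold lower with N1-ICD.

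Growth factor signalling had members on both sides, and 1 ligand and its receptor were split between the sets. KITLG, the ligand of the receptor tyrosine kinase KIT, had 10.5, 9.18 and 11.1 CPM in MB157 iSOX2, against 3.14, 3.49 and 3.22 CPM in MB157 iEV. It had 34.2, 37.8 and 34.9 CPM in MB157R iN1-ICD, against 55.7, 56.5 and 60.7 CPM in MB157R iEV. The ligand gene was thus 3.12 times its control with SOX2 and 1.62-fold lower with N1-ICD. KIT itself had 147, 152 and 142 CPM in MB157 iSOX2, against 238, 226 and 232 CPM in MB157 iEV. In the resistant line KIT was near the lowest level the rule allowed, with 4.15, 4.77 and 3.66 CPM in MB157R iN1-ICD against 1.81, 2.52 and 2.92 CPM in MB157R iEV. KIT was 1.57-fold lower with SOX2 and 1.74 times its control with N1-ICD, with no overlap of the libraries in either comparison. KITLG was picked for naming beside KIT after their values were seen, as were GUCY1A3, S100A14, PGBD5 and PIM1 below.

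IGFBP4, which binds insulin-like growth factors, had 132, 146 and 139 CPM in MB157 iSOX2, against 23.5, 21.2 and 23.4 CPM in MB157 iEV, 6.11 times as much, and 192, 215 and 192 CPM in MB157R iN1-ICD, against 340.1, 354 and 345 CPM in MB157R iEV, 1.74-fold lower. PDGFC, a platelet-derived growth factor, was 1.67 times its control with SOX2 and 1.55-fold lower with N1-ICD, and LRIG3, a membrane protein of the family that tunes receptor tyrosine kinases, 2.34 times and 1.54-fold lower. RGS2, which speeds the switching off of G proteins, was 5.52 times its control with SOX2 and 1.67-fold lower with N1-ICD. MYLIP, a ubiquitin ligase of the LDL receptor, was 2.30 times and 1.73-fold lower. The endocytic adaptor STON2 was 3.76 times and 1.67-fold lower. Of the 5 genes of this set with the highest mean CPM, those not described elsewhere were GALNT2, which starts mucin-type O-glycosylation (1.62 times and 1.61-fold lower), TMEM2, a cell surface hyaluronidase (2.56 times and 1.56-fold lower), and ANKRD50, a protein of endosome recycling (1.97 times and 1.5-fold lower).

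**Figure D2:**
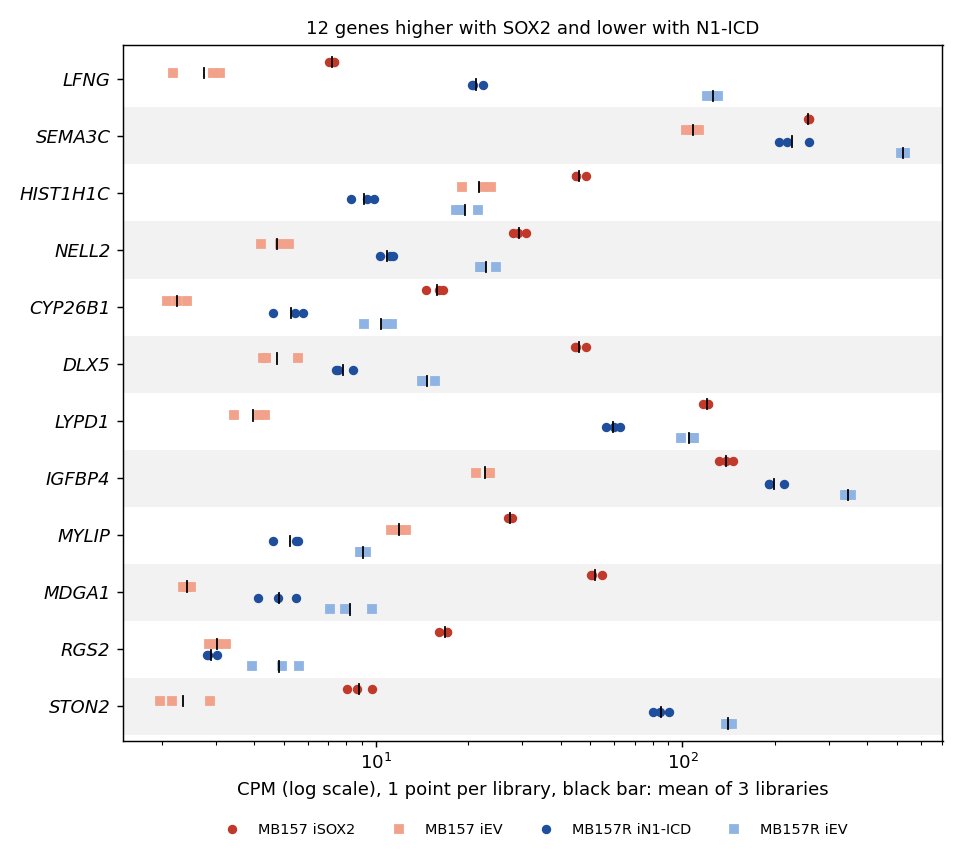
CPM on a log scale in each library (1 point each, black bars are means of 3) for the 12 genes with the largest smaller response among the 32 higher with SOX2 and lower with N1-ICD. MB157 iSOX2 lay above MB157 iEV and MB157R iN1-ICD below MB157R iEV in each gene, and LFNG, with means set apart by 45.9-fold between the empty-vector lines, shows that a response within a line can be small beside the distance between lines.

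Of 38 growth factors and antagonists among the 10224, FGFBP1 and INHBB were in the set of 96 lower with SOX2 and higher with N1-ICD, and IGFBP4 and PDGFC in the other set. FGFBP1 encodes a carrier that frees fibroblast growth factors from the matrix. It had 3.31, 2.91 and 3.00 CPM in MB157 iSOX2, against 19.9, 19.6 and 21.3 CPM in MB157 iEV, 6.6-fold lower. It had 129, 99.6 and 148 CPM in MB157R iN1-ICD, against 10.8, 9.68 and 10.0 CPM in MB157R iEV, 12.4 times as much. Of these 3 MB157R iN1-ICD libraries, replicate 2, which had the least NOTCH1, also had the least FGFBP1. Over the 96 genes this replicate was the lowest of its group for 33 (34.4%, beside 30.7% of the 10224 genes) and the highest for 41 (42.7%, beside 40.5%), so it was not low throughout. INHBB, a subunit of activin B and inhibin B, had 7.58, 7.2 and 7.09 CPM in MB157 iSOX2, against 22.3, 20.9 and 22.7 CPM in MB157 iEV. It had 25.1, 24.7 and 22.4 CPM in MB157R iN1-ICD, against 2.68, 3.18 and 2.28 CPM in MB157R iEV. The means were 3.01-fold lower with SOX2 and 8.87 times the control with N1-ICD.

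MYEOV had the lowest SOX2 ratio of the 128 genes and RHOV the highest N1-ICD ratio. MYEOV, a gene near CCND1 first named for its overexpression in myeloma, had 1.81, 2.12 and 2.33 CPM in MB157 iSOX2, against 30.7, 28.7 and 33.4 CPM in MB157 iEV, 14.8-fold lower. It had 29.4, 31.3 and 33.5 CPM in MB157R iN1-ICD, against 5.33, 6.45 and 5.14 CPM in MB157R iEV, 5.56 times as much. RHOV, a small GTPase gene, had 31.2, 30.7 and 32.4 CPM in MB157 iSOX2, against 98.2, 100.1 and 91.3 CPM in MB157 iEV, 3.07-fold lower. It had 93.3, 83.9 and 96 CPM in MB157R iN1-ICD, against 4.53, 4.18 and 3.85 CPM in MB157R iEV, 21.7 times as much. With N1-ICD both genes were close to their level in the sensitive line, with MYEOV at 101% and RHOV at 94.3% of the MB157 iEV mean in MB157R iN1-ICD.

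CYP1B1, a cytochrome P450 that hydroxylates estradiol and polycyclic compounds, joined a large N1-ICD ratio to a level far below the sensitive line. It had 199.7, 208 and 209 CPM in MB157 iSOX2, against 848, 849 and 821 CPM in MB157 iEV, 4.09-fold lower. It had 47.5, 41.1 and 48.2 CPM in MB157R iN1-ICD, against 2.22, 2.59 and 2.16 CPM in MB157R iEV, 19.6 times as much. MB157R iN1-ICD still reached only 5.43% of the MB157 iEV mean, and MB157R iEV was 361-fold below it. LURAP1L, related to an adaptor of actomyosin and NF-κB signalling, was 4.45-fold lower with SOX2 and 8.33 times its control with N1-ICD. FAT2, an atypical cadherin that steers epithelial migration, had 70.9, 67.0 and 68.0 CPM in MB157 iSOX2, against 212, 210.1 and 196 CPM in MB157 iEV. It had 35.2, 26.3 and 27.3 CPM in MB157R iN1-ICD, against 4.05, 2.88 and 4.14 CPM in MB157R iEV, 8.02 times as much but 14.4% of its MB157 iEV mean.

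The windows of LURAP1L, FGFBP1 and RHOV are shown because each held a SOX match and these genes were among the most responsive of the 96. LURAP1L, chr9:12774770-12775069 on the plus strand, held RBPJ cores from bases -109 and 26 and a SOX match from base -2, across the start. FGFBP1, chr4:15938691-15938990 on the minus strand, held a SOX match from base -156. RHOV, chr15:40874185-40874484 on the minus strand, held a SOX match from base -218, which reads CTTTGT. The windows of INHBB, FAT2 and IFFO2, also among the most responsive, held no RBPJ, SOX, or HEY and HES match. That of C10orf10 held an RBPJ core and no SOX match. The printed windows were thus chosen for their matches, and nothing is read from them about responsive genes as a whole.
LURAP1L: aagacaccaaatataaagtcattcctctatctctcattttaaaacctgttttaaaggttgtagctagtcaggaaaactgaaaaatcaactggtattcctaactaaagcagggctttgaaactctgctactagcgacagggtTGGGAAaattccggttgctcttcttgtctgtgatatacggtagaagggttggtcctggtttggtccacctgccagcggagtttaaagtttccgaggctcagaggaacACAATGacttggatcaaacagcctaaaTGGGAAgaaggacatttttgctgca
FGFBP1: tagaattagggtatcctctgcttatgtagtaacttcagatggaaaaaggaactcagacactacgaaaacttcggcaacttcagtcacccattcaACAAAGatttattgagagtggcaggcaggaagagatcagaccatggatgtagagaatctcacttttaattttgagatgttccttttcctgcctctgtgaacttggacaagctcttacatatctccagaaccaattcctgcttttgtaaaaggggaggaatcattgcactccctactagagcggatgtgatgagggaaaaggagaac
RHOV: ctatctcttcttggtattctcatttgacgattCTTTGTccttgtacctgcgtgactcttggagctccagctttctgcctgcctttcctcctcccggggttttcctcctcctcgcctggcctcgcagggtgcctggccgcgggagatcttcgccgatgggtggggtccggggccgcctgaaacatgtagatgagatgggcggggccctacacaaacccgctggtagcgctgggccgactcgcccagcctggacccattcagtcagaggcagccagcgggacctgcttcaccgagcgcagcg

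Promoter windows were found for 94 of the 128 genes, 31 windows for 24 of the 32 and 99 windows for 70 of the 96, since a gene may have several starts. Windows on chromosome 8 were left out of these and of all windows below. The RBPJ core stood in 32.3% of the 31 windows (10) and in 21.2% of the 99 (21), beside 21.0% of the windows of the 10224 genes and 24.0% of all windows. A SOX motif stood in 32.3% (10) and 16.2% (16), beside 16.9% and 24.5%. A HEY and HES motif stood in 16.1% (5) and 14.1% (14), beside 25.4% and 17.4%, and the AP-1 motif TGANTCA in 9.68% (3) and 5.05% (5), beside 4.75% and 7.71%. The exact 95% binomial intervals ran from 16.7% to 51.4% for 10 of 31 windows, and from 13.6% to 30.6% and 9.53% to 24.9% for 21 and 16 of 99, which hold the shares of the 10224 genes. For the HEY and HES motif the interval for the 31 windows ran from 5.45% to 33.7%, and that for the 99 windows, 7.95% to 22.6%, lay below the 25.4% of the 10224 genes and held the 17.4% of all windows. For the AP-1 motif the intervals ran from 2.04% to 25.8% and from 1.66% to 11.4%. Windows of 1 gene can overlap, and the intervals cover counting error alone. They treat windows as independent, which the 99 windows of 70 genes are not. Nothing is therefore read from a share inside or outside an interval.

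**Figure D3:**
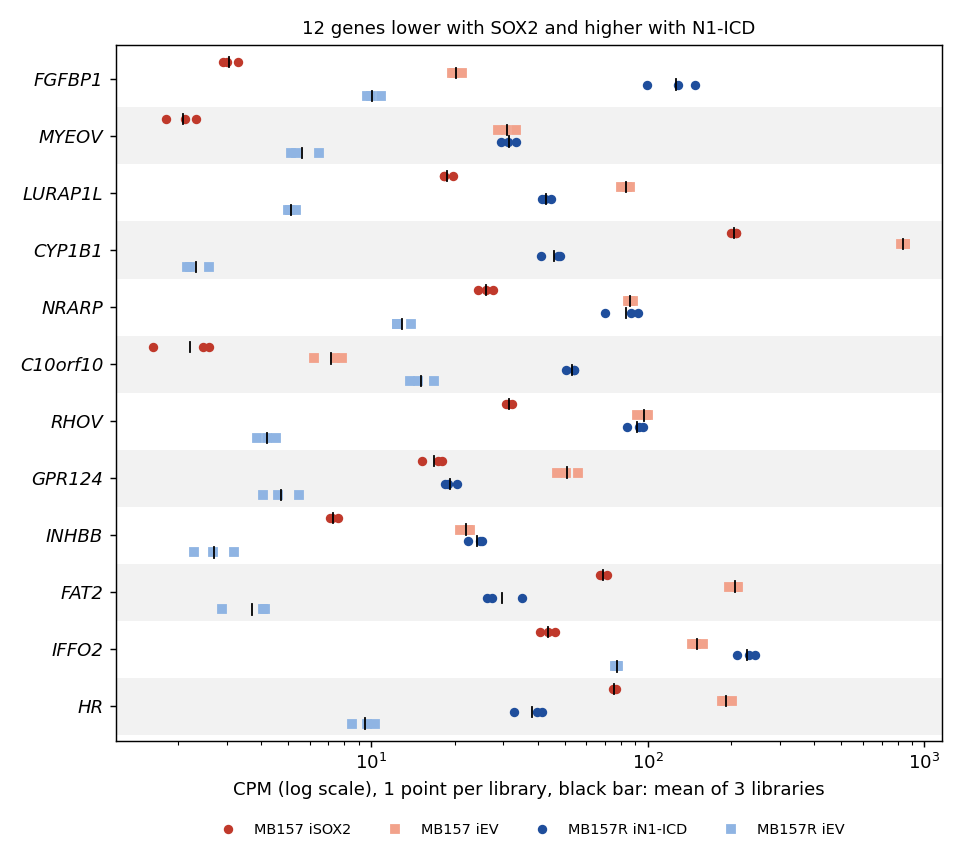
CPM on a log scale in each library (1 point each, black bars are means of 3) for the 12 genes with the largest smaller response among the 96 lower with SOX2 and higher with N1-ICD. MB157 iSOX2 lay below MB157 iEV and MB157R iN1-ICD above MB157R iEV in each, and CYP1B1 shows the widest span, with means of 361-fold between the empty-vector lines.

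The study's NOTCH signature of 77 genes had 15 members among the 96 and none among the 32. These were ADAMTSL4, CYP1B1, E2F2, FAT2, FGFBP1, IER3, IFFO2, INHBB, JPH2, LURAP1L, MYEOV, NRARP, PMAIP1, RHOV and YPEL2, out of 42 signature genes among the 10224. The study had intersected this signature with its own calls of iN1-ICD against iEV in the libraries described here, so its direction with N1-ICD is no independent evidence. The 32 had to be lower with N1-ICD, so the lack of signature genes among them is no evidence either. With N1-ICD 74 of its 75 tested genes were called higher and 1 lower (median log2 fold change 1.78), beside 29.8% and 29.3% of all genes tested. With SOX2 43 of 61 were called lower, 15 higher and 3 did not pass (median -0.74), beside 33.9% called lower and 32.5% higher of all. IFFO2, an intermediate filament family gene, had 40.6, 46.3 and 43.6 CPM in MB157 iSOX2, against 158, 149 and 145 CPM in MB157 iEV. It had 245, 210.0 and 232 CPM in MB157R iN1-ICD, against 78.2, 77.5 and 76.2 CPM in MB157R iEV. Its means were 3.46-fold lower with SOX2 and 2.96 times the control with N1-ICD.

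Epithelial junction genes gave 3 of the 96, out of 47 on their list among the 10224. PKP1, a desmosomal plakophilin of stratified epithelia, had 81.9, 89.8 and 85 CPM in MB157 iSOX2, against 149, 143 and 161 CPM in MB157 iEV, 1.76-fold lower. It had 517, 406 and 510.5 CPM in MB157R iN1-ICD, against 67.8, 64.2 and 72.8 CPM in MB157R iEV, 7.0 times as much, and replicate 2 lay below the other 2. The desmosomal cadherin DSC3 was 1.58-fold lower with SOX2 and 1.57 times its control with N1-ICD, and BSPRY 1.61-fold lower and 2.40 times. Over the whole list, 18 genes were called higher and 23 lower of 50 tested with SOX2 (median log2 fold change -0.03), beside 32.5% and 33.9% of all genes tested. With N1-ICD 29 were called higher and 10 lower of 50 (median 0.21), beside 29.8% and 29.3%. SPARC, a matricellular protein often counted as mesenchymal, had the same directions as these epithelial genes. It had 65.5, 67.8 and 71.1 CPM in MB157 iSOX2, against 343, 334 and 333 CPM in MB157 iEV, 4.94-fold lower. It had 50.2, 49.2 and 51.4 CPM in MB157R iN1-ICD, against 34.1, 32.6 and 30.5 CPM in MB157R iEV, 1.55 times as much. SPARC was the 1 gene of 30 mesenchymal genes among the 10224 in either set. Over that whole list, 14 genes were called higher and 14 lower of 30 tested with SOX2 (median log2 fold change 0.05). With N1-ICD 19 were called higher and 16 lower of 43 (median 0.06), beside the same shares of all genes as above.

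Transcription factors of the 96 were E2F2, ETS1, IRF1, KLF6, KLF9 and NFATC4. ETS1, founder of the ETS family, had 40.4, 41.1 and 41.7 CPM in MB157 iSOX2, against 106, 106 and 104 CPM in MB157 iEV. It had 467, 440.0 and 466 CPM in MB157R iN1-ICD, against 223, 215 and 230.1 CPM in MB157R iEV. ETS1 was thus 2.57-fold lower with SOX2 and 2.05 times its control with N1-ICD, and both MB157R groups lay above both MB157 groups. KLF9, a zinc finger factor induced by glucocorticoids, was 2.28-fold lower with SOX2 and 3.22 times its control with N1-ICD. KLF6, of the same family, was at the threshold with SOX2 (1.5-fold lower) and 2.18 times its control with N1-ICD. The interferon regulatory factor IRF1 was 1.58-fold lower and 1.67 times, the cell cycle factor E2F2 1.59-fold lower and 2.32 times, and NFATC4 1.89-fold lower and 1.75 times.

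IER3 and IER5 were 2 of 30 RAS and MAPK feedback and AP-1 genes among the 10224, and EGR1 and LRIG3 on that list were in the other set. IER3, an early gene that limits apoptosis, had 35.7, 37.3 and 40.0 CPM in MB157 iSOX2, against 71.5, 72.4 and 65.8 CPM in MB157 iEV. It had 1199.6, 1078 and 1191 CPM in MB157R iN1-ICD, against 512, 518 and 517 CPM in MB157R iEV. It was 1.86-fold lower with SOX2 and 2.24 times its control with N1-ICD. PMAIP1 (NOXA), a BH3-only protein that promotes apoptosis, was 1.83-fold lower with SOX2 and 2.10 times its control with N1-ICD, and IER5 2.22-fold lower and 1.78 times. The death receptor TNFRSF21 was 1.59-fold lower and 1.66 times.

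C3 and PLAU were 2 of the 5 genes with the highest mean CPM among the 96. C3, the central complement protein, had 9.97, 10.6 and 9.53 CPM in MB157 iSOX2, against 46.7, 44.8 and 43.2 CPM in MB157 iEV, 4.48-fold lower. It had 2537, 2444 and 2332 CPM in MB157R iN1-ICD, against 1294, 1246 and 1394 CPM in MB157R iEV, 1.86 times as much. PLAU, the urokinase that activates plasminogen, had 3.11, 2.81 and 3.07 CPM in MB157 iSOX2, against 8.73, 9.09 and 7.43 CPM in MB157 iEV, 2.81-fold lower. It had 1746, 1846 and 1747 CPM in MB157R iN1-ICD, against 1168, 1116 and 1089 CPM in MB157R iEV, 1.58 times as much. In both genes the 2 MB157R groups lay far above the 2 MB157 groups. AXIN2, a feedback inhibitor and common readout of Wnt signalling, was 1.70-fold lower with SOX2 and 1.74 times its control with N1-ICD. BAMBI, a decoy receptor for TGFβ ligands, was 1.91-fold lower and 3.82 times. They were 2 of the 9 Wnt response genes that the rule could choose from. Of 13 genes on that list tested with SOX2, 4 were called higher and 8 lower (median log2 fold change -0.57). Of 14 tested with N1-ICD, 4 were called higher and 6 lower (median -0.05), so the list as a whole did not rise with AXIN2 and BAMBI. The transmembrane semaphorin SEMA6B was 1.65-fold lower with SOX2 and 2.65 times its control with N1-ICD, opposite to the secreted SEMA3C.

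Of the genes with the largest responses that are not on these lists, GPR124, an adhesion receptor that helps Wnt7 signalling, was 3.03-fold lower with SOX2 and 4.10 times its control with N1-ICD. HR, the hairless corepressor, was 2.53-fold lower and 4.02 times. C10orf10, a gene induced by progestin and FOXO factors, was 3.22-fold lower and 3.50 times, at 2.46, 2.58 and 1.63 CPM in MB157 iSOX2 against 7.41, 6.23 and 7.82 CPM in MB157 iEV and 50.5, 54.2 and 54.3 CPM in MB157R iN1-ICD against 14.7, 13.8 and 16.9 CPM in MB157R iEV. MFI2, an iron-binding surface protein also called melanotransferrin, was 1.51-fold lower and 2.0 times. None of the 128 genes stood on the lists of hypoxia, cholesterol synthesis, unfolded protein response, YAP and TEAD targets or the SOX family. These lists had 29, 36, 33, 26 and 4 genes among the 10224, of which 1.25% were in either set. SOX2 itself had been set aside, and at this share nothing is read from the absence.

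The counts of 2 genes were uncertain. SULT1A4 is a near-identical copy of SULT1A3, and its estimated counts were 0 in some replicates and not in others: 0, 0 and 22.3 CPM in MB157 iSOX2, against 17.4, 21.7 and 36.0 CPM in MB157 iEV, and 0, 14.5 and 19.6 CPM in MB157R iN1-ICD, against 6.86, 7.65 and 7.36 CPM in MB157R iEV. The sum of both copies varied less within groups, at 26.1, 23.8 and 22.3 CPM in MB157 iSOX2, against 48.5, 50 and 54.9 CPM in MB157 iEV, and 13.4, 14.5 and 19.6 CPM in MB157R iN1-ICD, against 6.86, 7.65 and 7.36 CPM in MB157R iEV. The sum met the thresholds too, at 2.12-fold lower with SOX2 and 2.17 times the control with N1-ICD. BIVM-ERCC5, a readthrough of 2 neighbouring genes whose reads it shares, had 0, 2.65 and 9.63 CPM in MB157 iSOX2, against 15.3, 2.86 and 3.83 CPM in MB157 iEV, and 4.58, 5.52 and 13.5 CPM in MB157R iN1-ICD, against 3.29, 6.85 and 4.39 CPM in MB157R iEV. Its libraries overlapped in both comparisons, and its place in the set rests on group means alone.

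Not every gene could be tested, since the authors' tables leave out some, many of them under older symbols. With SOX2, 24 of the 32 and 84 of the 96 were in the table, and the 24 were called higher and the 84 lower. Of the 10904 genes tested 32.5% were called higher and 33.9% lower. With N1-ICD, 26 of the 32 and 85 of the 96 were in the table, of which the 26 were called lower and 83 of the 85 higher, while BIVM-ERCC5 and SULT1A4 did not pass. Of the 11210 genes tested 29.8% were called higher and 29.3% lower. The rule used the same values, so nothing is read from these counts. The libraries did not overlap in 24 and 83 genes with SOX2, beside 70.0% of the genes tested, and in 26 and 83 with N1-ICD, beside 64.8%. When genes were kept by their mean count alone (5 or more), all 128 were tested, and 126 of them were called in each comparison, with BIVM-ERCC5 and SULT1A4 the exceptions in both. SULT1A4 was called lower with SOX2 over the authors' table but lost that call in 8 of the alternatives, among them those without MB157 iEV replicate 1, 2 or 3 and without MB157 iSOX2 replicate 1 or 2. There 28.4% of 16396 genes were called higher and 27.9% lower with SOX2, and 27.6% and 25.3% of 15994 with N1-ICD. The study describes its replicates as biological, while the sample labels do not say whether the cultures were separate, and the calls measure the spread between these libraries.

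The same genes also differed between MB157R iEV and MB157 iEV, a comparison that shares both control groups with those that chose them. Of the 32 genes, the mean was above MB157 iEV in MB157R iEV for 29 and below for 3, HIST1H1C, MYLIP and ANKRD50. Of the 96, it was below for 70 and above for 26. Of the 25 genes of the 32 that were tested, 21 were called higher and 2 lower, at a median log2 fold change of 2.26. Of the 87 of the 96 tested, 22 were called higher and 62 lower, at a median of -1.17. Of the 11435 genes tested 45.0% were called higher and 45.3% lower, at a median of 0.00, and the libraries of 90.7% did not overlap. Because these controls enter both ratios of the rule, the directions are given side by side and are not independent evidence.

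**Figure D4:**
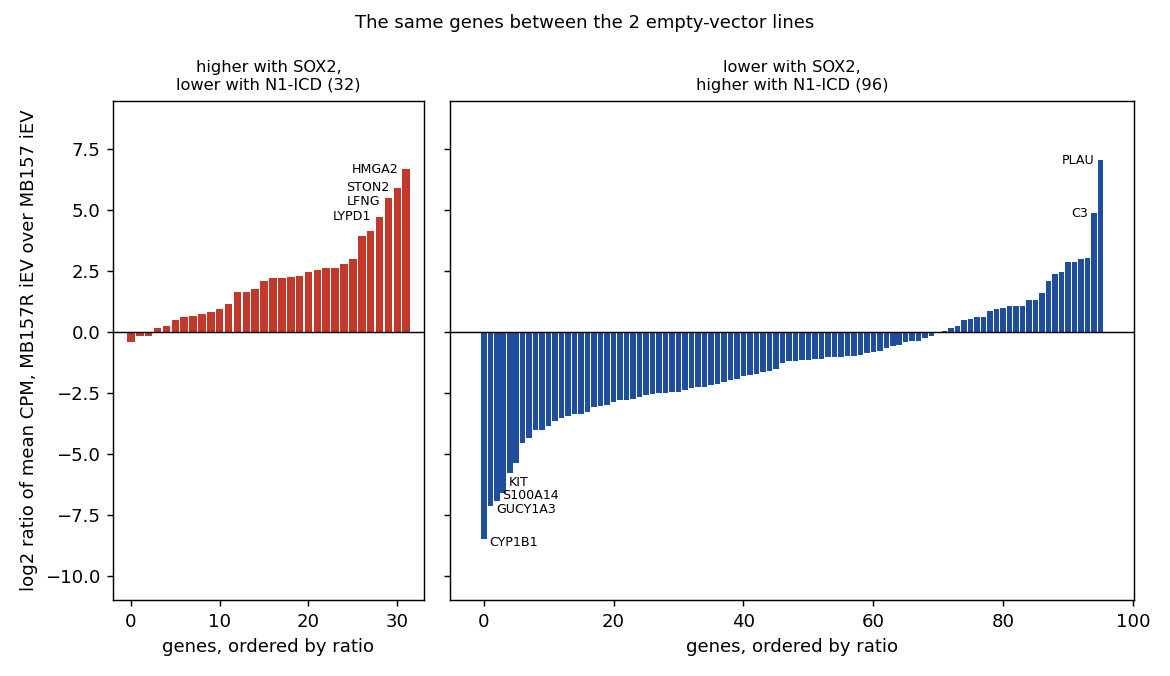
Log2 ratio of mean CPM in MB157R iEV over MB157 iEV for the 32 genes (left) and the 96 genes (right), 1 bar per gene in order of the ratio. Of the 32 genes 29 lay above 0 and of the 96 genes 70 lay below 0, with HMGA2 (103 times), PLAU (134 times) and CYP1B1 (361-fold lower) at the ends.

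Set against the empty-vector cells of the other line, the levels reached with each factor varied widely. Among the 96 genes, MB157R iN1-ICD was at or above the MB157 iEV mean in 44 and below it in 52, and within 1.5-fold of it in 25. Of the 44, 26 were above MB157 iEV in MB157R iEV already, and for these N1-ICD was associated with a wider distance between the lines. NRARP, MYEOV, RHOV, INHBB (109.6% of the MB157 iEV mean) and BAMBI (98.5%) were among those within this range. KIT (1.81%), GUCY1A3, a subunit of soluble guanylate cyclase (1.73%), and S100A14 (2.37%) stayed far below. Among the 32 genes, MB157 iSOX2 was at or above the MB157R iEV mean in 14 and below it in 18, and within 1.5-fold of it in 9. Of the 14, HIST1H1C, MYLIP and ANKRD50 were above MB157R iEV in MB157 iEV already. LYPD1 (114%), CACNA2D1 (116%) and TOX (89.2%) lay within this range, while LFNG (5.73%) and STON2 (6.21%) stayed far below, as did HMGA2. MDGA1 (630.1%) and DLX5 (314%) were well above. In 26 of the 96 genes the means of both MB157R groups lay above those of both MB157 groups, and in 30 both lay below. PLAU and C3 were among the 26, and KIT and CYP1B1 among the 30.

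A few of the genes lay close together in the genome. By RefSeq positions on GRCh38.p14, of pairs less than 1000000 bases apart, 5 lay within the set of 96: FAT2 and SPARC (66277 bases), PADI2 and ARHGEF10L (393984), ARRDC2 and ISYNA1 (420286), GAL and MYEOV (602980), and FUT3 and C3 (820582). In 2 pairs the neighbours belonged to opposite sets. GALNT2 and PGBD5 lie 32368 bases apart on chromosome 1, and PGBD5, a gene derived from a transposase, was 2.27-fold lower with SOX2 and 3.55 times its control with N1-ICD. MDGA1 and PIM1, which encodes a serine and threonine kinase, lie 455251 bases apart on chromosome 6.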

How the data were processed

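RNA-seq was made from 12 libraries of MB157 and MB157R cells in 4 groups of 3. The estimated counts per gene deposited by the authors, of which 88.0% were whole numbers, came from STAR and Salmon on hg38 and were not normalized. They also deposited, for each comparison, a filtered table of log2 CPM scaled by TMM (edgeR 3.42.4, limma 3.56.2), from which low genes (mean TPM below 2, or mean count below 5), pseudogenes and genes that were uncharacterized or predicted were absent. The gene annotation and the aligner versions are not given in the sources used here. From these log2 tables only the list of genes was used.

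Here CPM was the estimated count divided by the library total, and ratios were taken between means of 3 libraries. For calls, estimated counts of the genes in each filtered table were rounded, and the quasi-likelihood test of edgeR was run on the 6 libraries of the comparison with TMM factors (R 4.3.3, edgeR 4.0.16), with a Benjamini-Hochberg adjusted p under 0.05 over all genes tested. Library totals (32773820 to 49055208) set the precision of low values. Replicates differed by more than sampling noise. The members, gene lists and tests were chosen with earlier results of these data known. The lists other than the study's NOTCH signature were written by hand. Genes were named by rule: in each direction the 12 with the largest smaller absolute log2 ratio, the 5 with the highest mean CPM, at most 4 per list, and the 3 on each side of every threshold. Genes chosen after their values were seen are named as such. The summed level of leukocyte markers is not reported here.

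Chromosomes and promoter windows came from RefSeq on GRCh38.p14. A promoter window ran from 250 bases before to 50 after a transcription start, and windows on chromosome 8 were left out. Of 29744 entries, 23192 were placed by symbol, 3055 by synonym or ID, and 3497 were not placed, and 12 of the 128 genes were placed by synonym or ID. Alternatives were TMM-scaled CPM, minimum means of 1 and 5 CPM, group medians, 2-fold thresholds, RLE factors, no filter, a filter on mean counts of at least 5, limma-voom (limma 3.58.1), DESeq2 1.42.0, 1 fit over 12 libraries, a replicate block, leaving out each library, and longer motifs or shorter windows.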

Additional observations from a re-analysis of the deposited data

How the results depend on the processing

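The number of genes depended on the thresholds. A minimum mean of 5 CPM left 13 and 59 of the 32 and 96 genes, and thresholds of 2 and 0.5 left 4 and 21. A minimum of 1 CPM gave 47 and 130 genes, TMM-scaled CPM 31 and 101 (30 and 90 shared), and group medians 31 and 88. Leaving out 1 library at a time gave 28 to 36 and 92 to 99 genes, with at least 26 and 90 shared. The genes called were 108 with SOX2, 109 with N1-ICD and 107 between the empty-vector lines, and 107 to 108, 109 to 111 and 106 to 108 when 1 library was left out. RLE factors, limma-voom, DESeq2 and 1 fit over the 12 libraries moved these counts by at most 1, while no filter gave 127, 126 and 121 and a mean count of 5 alone 126, 126 and 121. The longer RBPJ motif GTGGGAA stood in 9.68% and 4.04% of the windows of the 2 sets, and SOX motifs with a preceding A in 12.9% and 3.03%, beside 5.49% and 5.41% of the windows of all 10224 genes. The calls that were lost were those of SULT1A4 with SOX2 and of SULT1A4 and GAL between the lines. SULT1A4 had an adjusted p of 0.059 to 0.63 in the 8 settings that lost it with SOX2 (the highest with DESeq2), and GAL of 0.059 to 0.081 in the 6 that lost it, 4 of them without 1 library (MB157R iEV replicate 1 or 3, or MB157 iEV replicate 2 or 3). For the 56 named genes tested, the 1166 log2 fold changes under the alternatives of 106 results kept their direction and side of the threshold. Many of these genes were named for large ratios or high levels in the same libraries, and SULT1A4 and BIVM-ERCC5 were not among them. The agreement thus follows in part from how the genes were picked, and nothing more is read from it.

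The replicate numbers are shared between groups, but same-numbered libraries did not deviate together (correlations between -0.22 and 0.13), so the numbers were not taken as pairs. A replicate block gave the same counts of calls, 108, 109 and 107. At these depths 1 count was 0.0204 to 0.0305 CPM, so that a group mean of 2 CPM, the lowest allowed, rests on many counts, while genes below it were not considered.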

Other observations

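Some genes met the thresholds but were set aside by the rule, and some of them had N1-ICD ratios above the highest described (RHOV, 21.7), though not larger responses to SOX2. KRT14, a keratin of basal epithelial cells, had 21.7, 22.7 and 24.1 CPM in MB157 iSOX2, against 54.9, 58.3 and 60.0 CPM in MB157 iEV, and 679, 631 and 745 CPM in MB157R iN1-ICD, against 7.22, 6.77 and 7.53 CPM in MB157R iEV, 95.5 times as much. KRT16, a keratin of stressed and hyperproliferative epithelium, had 23.2, 22.7 and 23.4 CPM in MB157 iSOX2, against 43.1, 45.3 and 43.9 CPM in MB157 iEV, and 476, 447 and 486 CPM in MB157R iN1-ICD, against 9.22, 9.46 and 9.16 CPM in MB157R iEV, 50.6 times as much. The basal keratins KRT5 (3.97-fold lower with SOX2 and 2.98 times the control with N1-ICD) and KRT6B (3.83-fold lower and 8.15 times) had the same directions, as did the matrix protease MMP7 (2.50-fold lower and 13.1 times). KRT80 stood opposite to them, at 1.60 times its control with SOX2 and 1.67-fold lower with N1-ICD, as did the integrin subunit ITGB5 (1.69 times and 1.59-fold lower).

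Among X-linked genes, which the rule left out, SAT1, the enzyme that acetylates polyamines, had 459.8, 479 and 467 CPM in MB157 iSOX2, against 729, 785 and 762 CPM in MB157 iEV, and 1718, 1851 and 1835 CPM in MB157R iN1-ICD, against 365, 347 and 369 CPM in MB157R iEV. The libraries of each pair of groups stood apart. SH3KBP1, an adaptor of receptor endocytosis, was 2.10-fold lower with SOX2 and 1.63 times its control with N1-ICD. The copper transporter gene ATP7A (1.85 times its control with SOX2 and 1.69-fold lower with N1-ICD) and KLHL13 (3.61 times and 1.54-fold lower) had the opposite directions. LOC102724852, an entry that could not be placed on a chromosome, had 1.71, 2.58 and 2.12 CPM in MB157 iSOX2, against 7.44, 6.65 and 7.31 CPM in MB157 iEV, and 147, 104 and 132 CPM in MB157R iN1-ICD, against 4.53, 4.11 and 3.93 CPM in MB157R iEV, 30.5 times as much.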
